A study of Arabidopsis thaliana with 16 samples.

Results

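Trimethylation of histone H3 lysine 27 (H3K27me3) was compared between seedlings of ubp5 and of Col-0, using the 4 H3K27me3 libraries among the 16 samples of the series. All 4 had a deposited peak list, 2 from ubp5 and 2 from Col-0. The ubp5 plants carry a deletion made with CRISPR/Cas9 in the Col-0 background, which removes part of the DUSP and UBP domains of UBP5, an H2A deubiquitinase, and the results rest on this 1 line. Col-0 is the Arabidopsis thaliana wild type. Both genotypes were grown on MS plates in long days and whole seedlings were taken at 12 days after germination, so that every library mixes many cell types. A mark present in fewer cells and a mark that is weaker in each cell cannot be told apart in such material. The members are the peaks whose deposited score, about 10 times −log10 q as a whole number, was over 30, and they were read onto 33056 nuclear genes of the TAIR10 genome, 27444 of them protein-coding. Covered length below means how many bp of a gene lie under such peaks.

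H3K27me3 is placed by Polycomb repressive complex 2 (PRC2), whose catalytic subunits in Arabidopsis vegetative tissue are CLF and SWN, and whose other subunits include EMF2, VRN2, FIE and MSI1. The mark spreads over whole genes and is known from loci kept silent outside a given organ or season, such as the flowering repressor FLC, the floral organ gene AG and the stem cell gene WUS. PRC1 places ubiquitin on H2A (H2Aub), which UBP5 removes, and both marks are often found on the same genes. PRC2 is brought to some of its targets by factors that bind short DNA elements, among them the telobox and runs of GA.

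The lists held 5302 and 5565 peaks over the threshold in ubp5 replicates 1 and 2, against 4913 and 5746 in Col-0 replicates 1 and 2. They covered 14.2 and 14.68 Mb in ubp5, against 14.57 and 16.61 Mb in Col-0. Col-0 replicate 2 stood apart. Its median score was 154, against 96, 96 and 100 in ubp5 replicate 1, ubp5 replicate 2 and Col-0 replicate 1, and its median fold was 3.099, against 2.443, 2.73 and 2.535. The depth table of the study lists similar numbers of uniquely mapped reads for all of these H3K27me3 libraries. Peak lists cannot be thinned to an equal depth, and counts are also given without single libraries where that moved them by more than 1.5 times. UBP5 itself (AT2G40930) had no H3K27me3 peak in any library, and peak lists cannot show its deletion.

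Genes were sorted by covered length into those gaining a peak (covered in both ubp5 libraries and at 0 bp in both Col-0 libraries), those losing a peak (the reverse) and kept genes (covered in all 4). Start windows of 6 of them are shown first, because they carry the elements named above while the peaks over them differ. Each runs from 250 bases before to 50 bases after the annotated gene start, 5′ to 3′ on the strand of the gene, in RefSeq's TAIR10.1 assembly. The telobox AAACCCTA and the run GAGAGAGA are in capitals, found on either strand. LDA (chr5:1221198-1221497, plus strand) and AT4G23820 (chr4:12400182-12400481, minus strand) gained a peak, RPL12-B (chr3:10323104-10323403, plus strand) lost one, and SEP2 (chr3:467102-467401, minus strand), WUS (chr2:7810762-7811061, minus strand) and CUC2 (chr5:21903805-21904104, minus strand) kept theirs.
LDA: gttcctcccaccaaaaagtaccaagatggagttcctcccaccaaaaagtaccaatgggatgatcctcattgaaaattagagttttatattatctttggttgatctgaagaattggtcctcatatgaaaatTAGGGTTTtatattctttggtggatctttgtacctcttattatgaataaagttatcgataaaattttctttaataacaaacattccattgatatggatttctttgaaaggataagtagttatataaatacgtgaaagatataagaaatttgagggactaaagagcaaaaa
AT4G23820: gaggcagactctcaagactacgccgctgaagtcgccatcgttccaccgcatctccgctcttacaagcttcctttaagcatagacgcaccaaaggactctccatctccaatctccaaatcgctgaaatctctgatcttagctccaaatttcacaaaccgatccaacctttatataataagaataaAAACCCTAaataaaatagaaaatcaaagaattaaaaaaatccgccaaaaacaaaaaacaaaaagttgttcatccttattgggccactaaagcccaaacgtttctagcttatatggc
RPL12-B: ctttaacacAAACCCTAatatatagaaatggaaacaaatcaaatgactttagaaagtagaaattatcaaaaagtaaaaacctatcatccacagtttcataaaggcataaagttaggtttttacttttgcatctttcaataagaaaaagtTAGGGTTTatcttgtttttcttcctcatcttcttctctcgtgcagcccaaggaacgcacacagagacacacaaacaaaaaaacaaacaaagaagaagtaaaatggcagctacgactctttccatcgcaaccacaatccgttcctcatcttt
SEP2: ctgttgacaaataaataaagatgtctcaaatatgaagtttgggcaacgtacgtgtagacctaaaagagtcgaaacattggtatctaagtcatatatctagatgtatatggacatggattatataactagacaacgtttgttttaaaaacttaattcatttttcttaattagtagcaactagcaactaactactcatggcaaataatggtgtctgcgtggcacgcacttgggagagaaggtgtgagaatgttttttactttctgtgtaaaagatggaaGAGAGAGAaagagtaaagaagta
WUS: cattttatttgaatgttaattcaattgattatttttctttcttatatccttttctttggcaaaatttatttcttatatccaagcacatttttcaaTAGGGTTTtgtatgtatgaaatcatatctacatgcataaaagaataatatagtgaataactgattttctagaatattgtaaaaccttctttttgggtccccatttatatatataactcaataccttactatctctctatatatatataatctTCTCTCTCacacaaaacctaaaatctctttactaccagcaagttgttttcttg
CUC2: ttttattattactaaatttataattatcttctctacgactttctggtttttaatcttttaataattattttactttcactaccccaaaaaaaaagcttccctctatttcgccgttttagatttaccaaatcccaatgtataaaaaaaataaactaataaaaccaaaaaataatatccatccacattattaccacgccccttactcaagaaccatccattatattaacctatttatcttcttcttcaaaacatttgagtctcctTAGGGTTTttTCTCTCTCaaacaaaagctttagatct

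The window of AT4G23820 was covered over 300 and 300 bp in ubp5, against 0 and 0 bp in Col-0. That of RPL12-B was covered over 0 and 0 bp in ubp5, against 300 and 300 bp in Col-0. Both hold a telobox, so the same letters stood in a window that was covered in ubp5 alone and in one covered in Col-0 alone. The LDA window was covered over 300 and 300 bp in ubp5, against 138 and 179 bp in Col-0, where the peak stopped short of the gene. The SEP2 window was covered over 10 and 67 bp in ubp5, against 300 and 300 bp in Col-0. The windows of WUS and CUC2 were covered over all 300 bp in every library. Over all protein-coding genes with a window, 6.22% held the telobox and 8.38% the GA run. The telobox stood in 5.4% of the windows of genes gaining a peak, 8.57% of those losing one and 8.3% of those keeping one, and the GA run in 7.67%, 7.35% and 8.92% of the same groups. A match describes the letters of a window and is not a binding site.

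The first question was which genes differed in the presence of the mark. Most did not: 24430 genes had no peak in any library, 5529 were kept, and 1868 were covered in some other combination of libraries. A peak was gained by 641 genes, 1.94% of all genes, and lost by 588, 1.78%. These counts carry no p-value, since 2 against 2 libraries cannot give an exact two-sided permutation p below 0.3333. The balance between them moved with the amount of sequence called. With the 4 lists brought to an equal covered length by dropping their weakest peaks, 824 genes gained and 394 lost a peak, and with a score over 60 the order turned to 427 gains and 614 losses. Without Col-0 replicate 1, so that the strong Col-0 replicate 2 alone set the Col-0 calls, the losses numbered 1156.

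Losses were more often partial than gains. Of the 641 genes gaining a peak, 102 (15.9%) had a deposited Col-0 peak below the score threshold, whereas 301 of the 588 genes losing one (51.2%) had a weaker deposited peak in ubp5. With no deposited peak of any score allowed in the other genotype, 539 gains and 287 losses were counted. The lists differ in how many weaker peaks they hold. Of the deposited peaks, 5302 of 7132 and 5565 of 7582 passed the threshold in ubp5, against 4913 of 6811 and 5746 of 6952 in Col-0. Fewer weaker peaks could thus be found in Col-0 replicate 2, and the part of this in the comparison was not tested. Peaks over gained genes were also weaker than those over kept genes, with a median of the highest fold per gene of 2.251 and 2.556 in the ubp5 libraries, against 2.831 and 3.21 over kept genes in the same libraries. Peaks over lost genes had medians of 2.118 and 2.678 in the Col-0 libraries, against 2.894 and 3.981 over kept genes. Kept genes had to pass the score threshold in every library, gained or lost genes only in the libraries of the genotype with the peak. The sorting rule thus favours stronger peaks over kept genes, and its part in these differences was not tested.

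Genes gaining the mark had more exons than those losing or keeping it. The median length of protein-coding genes was 2188 bp for the 574 gaining a peak, 1652 bp for the 490 losing one, 1630 bp for the 4845 kept and 2227 bp for the 19980 without a peak. The median number of exons was 5, 3, 3 and 4 in the same groups, and 13.1%, 29.4%, 26.4% and 16.6% had a single exon. In these properties gained genes resembled the unmarked genes, and lost genes resembled the kept ones. Peaks covered a median of 54.05% of a gained gene and 58.47% of a lost one, and 125 gained and 121 lost genes were covered over at least 90% of their length.

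The genes with the longest gains encode proteins of different kinds. LDA (AT5G04360, chr5:1221448-1228841, plus strand) encodes limit dextrinase, a starch debranching enzyme, and had 7394 and 7394 bp in ubp5, its whole length, against 0 and 0 bp in Col-0. AT1G23935, annotated as an apoptosis inhibitory protein, had 7426 and 7016 bp in ubp5, against 0 and 0 bp in Col-0. AT5G49390, annotated as a regulatory subunit-like protein of a serine/threonine protein phosphatase, had 6110 and 5126 bp in ubp5, against 0 and 0 bp in Col-0. None of these genes had a weaker deposited peak in Col-0.

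CalS7 (AT1G06490, chr1:1978378-1989409, plus strand), a callose synthase of the phloem, had 5470 and 5442 bp in ubp5, on average 49.46% of its length, against 0 and 0 bp in Col-0. HAF2 (AT3G19040, chr3:6567021-6575613, minus strand), a histone acetyltransferase of the TAF1 family, had 4936 and 4608 bp in ubp5, against 0 and 0 bp in Col-0. MCM9 (AT2G14050), a relative of the replicative helicase subunits, had 5121 and 3476 bp in ubp5, against 0 and 0 bp in Col-0. These genes, too, had no Col-0 peak of any score, and the same held for RXW8, AT4G31980 and the ubiquitin ligase gene UPL7, which had between 3930 and 5458 bp in ubp5. The exception among the 10 longest gains was the immune receptor gene AT1G59218. It had 5074 and 5074 bp in ubp5, its whole length, against 0 and 0 bp in Col-0 over the threshold, but weaker Col-0 peaks covered 1419 and 1353 bp. All of its 100-base words occur elsewhere in the genome, so its reads could come from another copy.

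The genes with the longest losses were also of different kinds. HDA18 (AT5G61070, chr5:24571095-24574387, minus strand), a histone deacetylase with a role in root epidermis patterning, had 0 and 0 bp in ubp5, against 3096 and 3173 bp in Col-0. AGO3 (AT1G31290, chr1:11188120-11192585, plus strand), an Argonaute protein, had 0 and 0 bp in ubp5, against 2202 and 3643 bp in Col-0. CHX17 (AT4G23700, chr4:12342376-12346051, minus strand), a cation/proton exchanger, had 0 and 0 bp in ubp5, against 3038 and 2799 bp in Col-0. AGO3 and CHX17 had no deposited ubp5 peak of any score, whereas HDA18 had weaker ubp5 peaks over 667 and 1748 bp.

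RLK1 (AT5G60900), a receptor-like kinase, had 0 and 0 bp in ubp5, against 2853 and 2806 bp in Col-0, with no weaker ubp5 peak. PRXCB (AT3G49120), a peroxidase known for producing reactive oxygen in defence, had 0 and 0 bp in ubp5, against 2591 and 2656 bp in Col-0. LURP1 (AT2G14560), known from the response to downy mildew, had 0 and 0 bp in ubp5, against 2224 and 2316 bp in Col-0. PRXCB kept weaker ubp5 peaks over 565 and 794 bp and LURP1 over 773 and 520 bp. In all, 6 of the 10 longest losses kept a weaker deposited ubp5 peak, against a weaker Col-0 peak at 1 of the 10 longest gains. The longest loss, the immune receptor gene AT4G19520, changed direction with the threshold. Over it, the gene had 0 and 0 bp in ubp5, against 3559 and 3528 bp in Col-0, but with all deposited peaks it had 3237 and 4041 bp in ubp5, against the same lengths in Col-0.

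**Figure D1:**
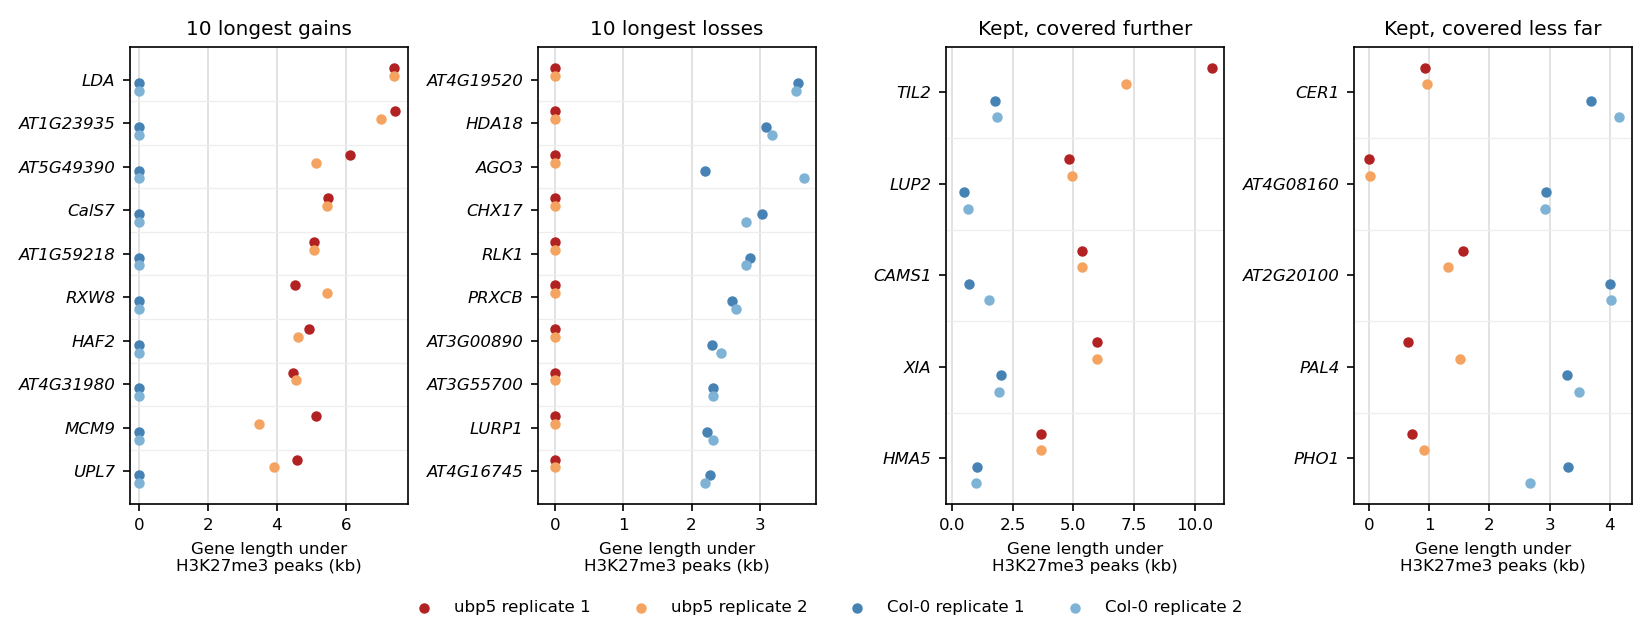
Length of named genes under H3K27me3 peaks, in kb, for the 10 longest gains, the 10 longest losses and the 5 kept genes with the largest difference in each direction. Each point is 1 library, ubp5 in red and orange above Col-0 in dark and light blue, and LDA, for example, lies at 7394 bp in both ubp5 libraries and at 0 bp in both Col-0 libraries; the genotypes do not overlap in any gene shown, which follows from how the genes were chosen.

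The next question was how far the mark reached within kept genes. More of them were covered less far in ubp5 than further: in 1550 of 5529 genes, 28.0%, both ubp5 libraries had a shorter covered length than both Col-0 libraries, and in 283, 5.12%, a longer one. The differences were short, with a median of −180.8 bp where coverage was less far and 200.5 bp where it was further. Without Col-0 replicate 2, 1665 genes were covered less far and 905 further, so the gap between these counts narrowed. The number covered further was 553 without ubp5 replicate 1, 441 without ubp5 replicate 2 and 490 without Col-0 replicate 1, and the number covered less far was 2346 without Col-0 replicate 1. Fewer libraries have to be in order in these counts, which raises them by construction.

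Summed over kept genes, 73.85% and 75.41% of the gene length was under peaks in ubp5, against 77.15% and 80.63% in Col-0. The means were 74.63% ± 1.108 in ubp5 and 78.89% ± 2.46 in Col-0 (SD, n = 2 each), a difference of −0.24 on the logit scale. Both ubp5 libraries lay below both Col-0 libraries, which gives the smallest p the design allows (exact permutation test, two-sided, p = 0.3333, and 0.4166 after Benjamini-Hochberg adjustment over 5 such comparisons). Without Col-0 replicate 2 the difference was −0.13. The total covered length within genes did not separate the genotypes, with 8.256 and 8.518 Mb in ubp5, against 8.187 and 9.184 Mb in Col-0 (p = 1.0 by the two-sided exact permutation test). Its difference of −0.05 on the log2 scale turned to 0.03 without Col-0 replicate 2 and to 0.06 with lists of equal covered length.

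Among genes covered further, TIL2 (AT2G27120, chr2:11581214-11594397, plus strand), a homologue of the catalytic subunit of DNA polymerase epsilon, had 10696 and 7157 bp in ubp5, against 1765 and 1834 bp in Col-0. LUP2 (AT1G78960, chr1:29696394-29701439, plus strand) and CAMS1 (AT1G78955, chr1:29688906-29694255, minus strand) lie near each other and encode triterpene synthases. LUP2 had 4828 and 4920 bp in ubp5, against 498 and 635 bp in Col-0. CAMS1 had 5350 and 5350 bp in ubp5, against 698 and 1503 bp in Col-0, so that the mark ran over nearly all of both genes in ubp5 and over a short stretch of each in Col-0. XIA, a myosin, had 5959 and 5968 bp in ubp5, against 2002 and 1936 bp in Col-0. HMA5, a copper-transporting ATPase, had 3657 and 3657 bp in ubp5, its whole length, against 1012 and 983 bp in Col-0.

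Among genes covered less far, CER1 (AT1G02205, chr1:418416-422579, plus strand), needed for the wax alkanes of the cuticle, had 925 and 956 bp in ubp5, against 3691 and 4164 bp in Col-0. PAL4 (AT3G10340), a phenylalanine ammonia-lyase at the entry of phenylpropanoid synthesis, had 648 and 1505 bp in ubp5, against 3288 and 3498 bp in Col-0. AT4G08160, a glycosyl hydrolase gene, had 6 and 13 bp in ubp5, against 2936 and 2930 bp in Col-0. By the rule these genes kept a peak, while most of each was uncovered in ubp5. AT2G20100, a bHLH transcription factor gene, had 1556 and 1313 bp in ubp5, against 4009 and 4028 bp in Col-0. PHO1, which loads phosphate into the xylem, had 707 and 910 bp in ubp5, against 3309 and 2674 bp in Col-0, but with a score over 60 the mean in ubp5 was 92.0 bp the longer one.

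Genes known for the mark were followed in a list of 44, made of developmental regulators and of genes the study names, which it chose with samples of this series in view and which are no independent evidence. Of these, 16 were kept with overlapping lengths, 11 were kept and covered less far in ubp5, 6 gained a peak, none lost one, 9 had no peak and 2 had another combination. AG, STK, PHE1, FUS3, KNAT1, WUS and CUC2 were covered over their whole length in all 4 libraries. FLC (AT5G10140), 6067 bp long, had 5617 and 5777 bp in ubp5, against 5810 and 5938 bp in Col-0. STM, the meristem homeobox gene, had 3273 and 3277 bp in ubp5, against 3267 and 3276 bp in Col-0. These silent developmental loci thus stayed covered over most of their length in ubp5.

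The largest retreat in the list was at the homeobox gene KNAT2 (AT1G70510, chr1:26576486-26582879, plus strand), with 4057 and 3226 bp in ubp5, against 5545 and 5597 bp in Col-0. The flowering repressor gene MAF4 had 923 and 2425 bp in ubp5, against 2603 and 2828 bp in Col-0. The root stem cell gene WOX5 had 967 and 963 bp in ubp5, against 1133 and 1161 bp in Col-0. SHP1, SHP2, SEP3, PI, FT, LEC1 and CUC3 were also covered less far in ubp5, as was FLC. MAF5 overlapped, with 2514 and 2513 bp in ubp5, against 1377 and 3255 bp in Col-0, and with a score over 60 its mean difference was −365.0 bp. Genes of the PRC2 subunits CLF, SWN, EMF2, VRN2, FIE and MSI1 had no peak in any library. DRIP1, which encodes the PRC1 subunit BMI1B, gained a peak, with 2546 and 2376 bp in ubp5, against 0 and 0 bp in Col-0. The other gains of the list were NDA2, GAF1, AT1G03760, SAMBA and GC4. UPP and ACT1, which the study lists among genes with raised H3K27me3 in ubp5, had no peak over the threshold in any library. AT3G61320, which counts as another combination, had 1750 and 1745 bp in ubp5, against 0 and 143 bp in Col-0.

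Functional classes were then compared, 45 in all, drawn from the annotation's symbols and product names. In 39 classes more kept genes were covered less far than further in ubp5, in 6 the counts were equal and in no class were they reversed. This tally repeats the lean of all kept genes, 28.0% less far and 5.12% further, and is no result about single classes. Several of the equal classes had no gene of either kind. Losing genes outnumbered gaining ones in 24 classes, the reverse held in 9, and 12 had as many of each. This tally turned with lists of equal covered length, where losing genes outnumbered gaining ones in 14 classes and the reverse held in 23. With no deposited peak of any score in the other genotype it was 10 classes against 11. Of the 22446 protein-coding genes in none of the classes, 499 (2.22%) gained and 365 (1.63%) lost a peak, close to the 2.09% and 1.79% of all protein-coding genes. The class counts are read against the 1.94% of all genes that gained and the 1.78% that lost a peak. These shares are over all genes, marked or not.

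Transcription factor genes kept the mark far more often than other genes, 483 of 1259 (38.4%) against 16.7% of all genes. Of them, 15 (1.19%) gained and 30 (2.38%) lost a peak. Of the 483 kept, 163 (33.7%) were covered less far in ubp5, against 30.7% of all kept protein-coding genes. The order of gains and losses was not stable, since lists of equal covered length gave 24 gains and 21 losses, and 10 of the 30 losses had no ubp5 peak of any score. Among MADS-box genes, 56 of 125 were kept, 3 gained and 1 lost a peak. Among homeobox genes, 45 of 99 were kept, none gained and 1 lost a peak (2 gains and 0 losses with lists of equal length), and among NAC genes 47 of 113 were kept with the same counts of 0 and 1. The lost NAC gene, NAC6, a regulator of leaf senescence, had 0 and 0 bp in ubp5, against 378 and 335 bp in Col-0, and a weaker peak over 365 bp in ubp5 replicate 2.

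WRKY transcription factors, many of which act in defence, were covered less far more often than all kept genes (28.0%) or kept protein-coding genes (30.7%). Of 73 genes, 33 were kept, and 16 of the 33 (48.5%) were covered less far in ubp5 and 1 further. Peaks covered 39.4% and 41.95% of their summed length in ubp5, against 45.48% and 48.3% in Col-0. No WRKY gene gained a peak and 4 lost one, 3 of them with no ubp5 peak of any score. WRKY70, which links salicylate and jasmonate responses, had 0 and 0 bp in ubp5, against 695 and 1668 bp in Col-0. WRKY17 had 0 and 0 bp in ubp5, against 552 and 653 bp in Col-0. With a score over 60, with all deposited peaks and with lists of equal length, 3 WRKY genes were lost and none gained.

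Of 894 genes of specialised metabolism and transport, 33 (3.69%) lost and 10 (1.12%) gained a peak. Only a gene marked in Col-0 can lose one, and 328 of the 894 (36.7%) were kept, against 16.7% of all genes. The share of losses is thus not a rate among marked genes. In most of the losses the mark was weaker rather than absent, since 4 of the 33 had no ubp5 peak of any score. Lists of equal length gave 25 gains and 24 losses. The UDP-glycosyltransferases, which attach sugars to hormones and secondary metabolites, lost more peaks over the threshold than they gained. Their kept share was 16.7%, as over all genes. Of 132 genes, 11 lost and 1 gained a peak, and 13 of the 22 kept genes (59.1%) were covered less far in ubp5, with none covered further. Peaks covered 11.12% and 12.54% of their summed length in ubp5, against 18.14% and 21.59% in Col-0. With lists of equal length 9 were lost and 3 gained, and with all deposited peaks 6 were lost and 2 gained. Only 1 of the 11 losses had no weaker ubp5 peak. With no deposited peak of any score in the other genotype, 1 was lost and 1 gained.

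AT3G55700 and AT3G55710, neighbours in the widest domain found in Col-0 alone, were among these glycosyltransferases. AT3G55700 had 0 and 0 bp in ubp5, against 2316 and 2316 bp in Col-0, its whole length, and weaker ubp5 peaks over 547 and 664 bp. UGT84A3 had 0 and 0 bp in ubp5, against 1124 and 1797 bp in Col-0. Other enzymes behaved less evenly. Terpene synthase genes kept the mark at 32 of 46 (69.6%), with no gain and no loss, and 13 of 16 SWEET sugar transporter genes kept it, also with none. Among cytochrome P450 genes 96 of 252 were kept, 2 gained and 7 lost a peak, an order that turned to 3 gains and 2 losses with lists of equal length, and among class III peroxidase genes 38 of 70 were kept, 1 gained and 4 lost one. All 4 peroxidase losses had weaker ubp5 peaks.

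Cell wall genes and seed genes also lost more peaks than they gained. They kept the mark more often than all genes too, at 45.2% and 47.1% against 16.7%. Of 279 cell wall genes (expansins, pectin lyases, and pectin methylesterases with their inhibitors) 126 were kept, 4 gained and 13 lost a peak, and 4 of the 13 had no ubp5 peak of any score. Of 70 seed storage, oleosin and late embryogenesis genes, 33 were kept, 1 gained and 4 lost a peak, and all 4 had no ubp5 peak of any score. Their summed length was covered over 38.43% and 37.23% in ubp5, against 44.69% and 53.76% in Col-0. F-box genes, which encode the substrate-binding subunits of ubiquitin ligases and number 653 here, kept the mark at 297, gained it at 15 and lost it at 19, and with lists of equal length the order was the opposite, 21 gains and 14 losses.

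NLR immune receptor genes went the other way. Of 155 genes, 29 were kept, 7 (4.52%) gained and 1 lost a peak, and among the kept ones 6 were covered further and 6 less far. Their summed length was covered over 19.93% and 20.92% in ubp5, against 15.04% and 17.78% in Col-0. Gains exceeded losses under each threshold tried, with 9 and 1 for all deposited peaks, 8 and 2 for a score over 60 and 16 and 0 with lists of equal length. The longest of the gains was AT1G59218, described above, with weaker Col-0 peaks over 1419 and 1353 bp. All of its 100-base words occur elsewhere, so its reads could come from another copy, and it is counted in these numbers. AT1G72840 had 1720 and 1552 bp in ubp5, against 0 and 0 bp in Col-0, with no weaker Col-0 peak. LAZ5 had 1532 and 3670 bp in ubp5, against 0 and 0 bp in Col-0, but a weaker peak over 1668 bp in Col-0 replicate 2. The single loss was AT4G19520, whose direction turned with all deposited peaks, and 4 of the 7 gains had no Col-0 peak of any score.

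Genes known for steady expression seldom carried the mark. Of 716 such genes 29 (4.05%) were kept, 14 (1.96%) gained and 7 (0.978%) lost a peak. Over all genes 1.94% gained and 1.78% lost one, so the share of gains was that of all genes. Histone genes, a class that here includes other histone-fold proteins, supplied 5 of these gains and 1 of the losses among 48 members. H2AXA, a gene of the H2A.X variant of the DNA damage response, had 651 and 753 bp in ubp5, against 0 and 0 bp in Col-0. AT2G37470 had 505 and 535 bp in ubp5, against 0 and 0 bp in Col-0. None of the 5 histone gains had a Col-0 peak of any score. Of 262 pentatricopeptide repeat genes 4 (1.53%) gained and none lost a peak. Of 303 ribosomal protein genes 3 (0.99%) gained and 5 (1.65%) lost one.

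**Figure D2:**
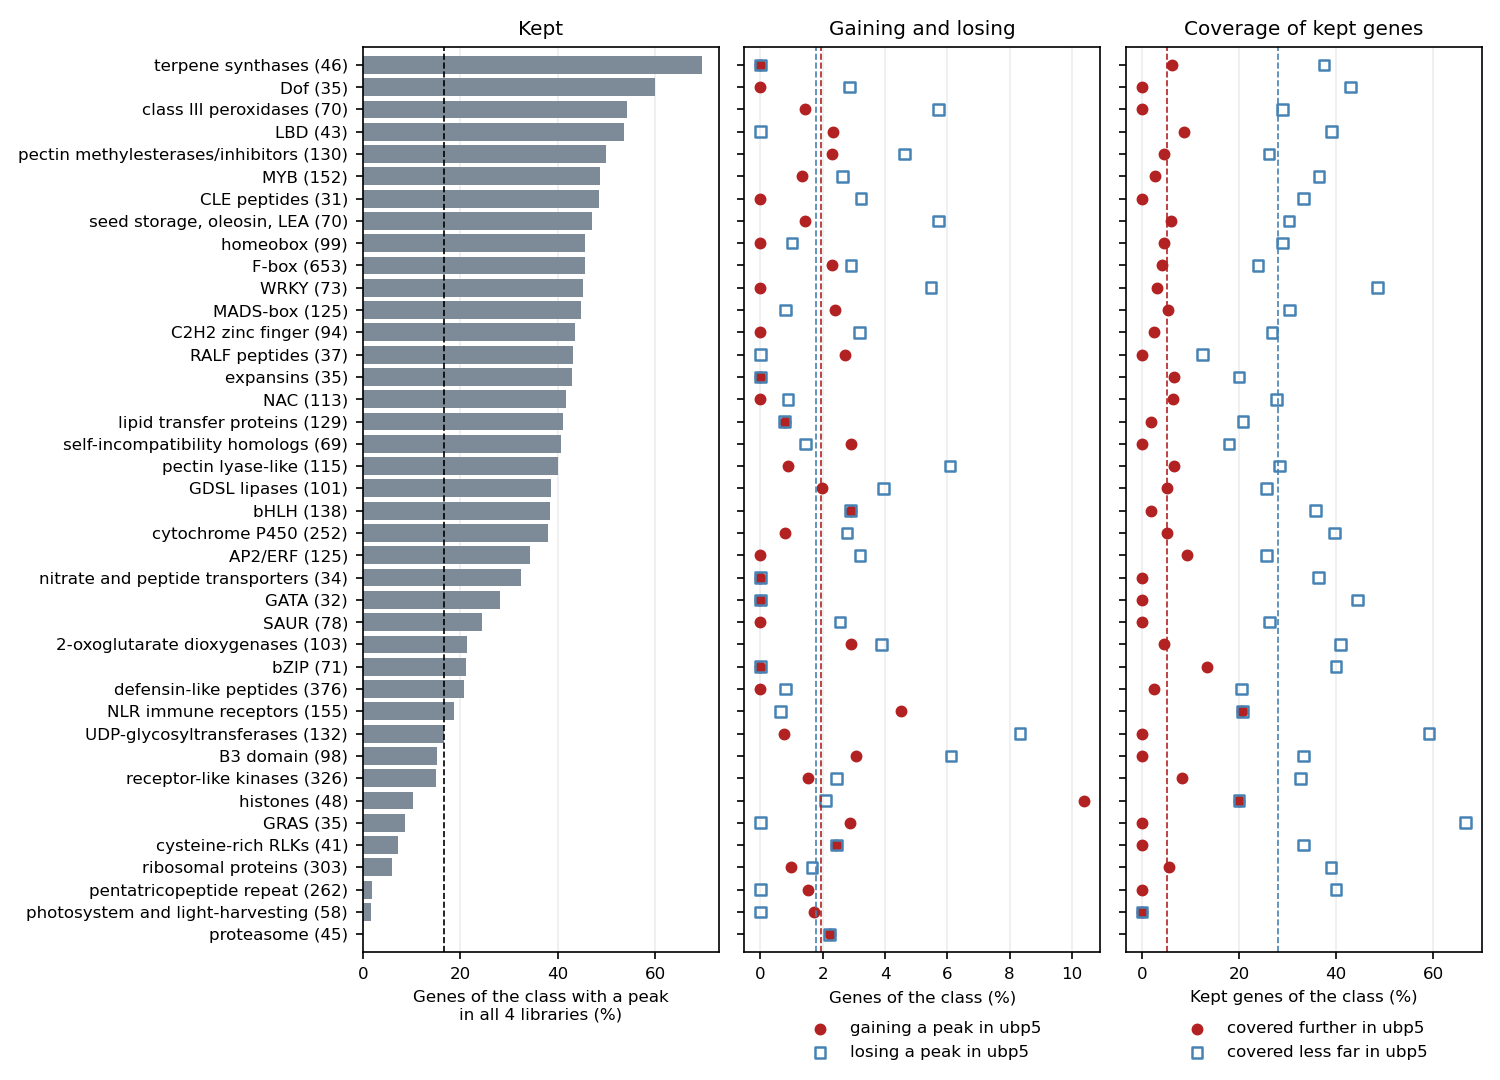
Functional classes of at least 30 genes, with the number of genes in brackets: the share kept in all 4 libraries (left), the shares gaining (red) and losing (blue squares) a peak in ubp5 (middle), and the shares of kept genes covered further (red) and less far (blue squares) in ubp5 (right), all in percent. Dashed lines give the shares over all nuclear genes, 16.7%, 1.94%, 1.78%, 5.12% and 28.0%; UDP-glycosyltransferases lie at 8.33% losing and 59.1% covered less far, and NLR immune receptors at 4.52% gaining.

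Among other gene types, microRNA genes kept the mark at 86 of 326 (26.4%), with 4 gains (1.23%) and 5 losses (1.53%). Of 3480 long noncoding RNA genes 482 (13.9%) were kept, 39 (1.12%) gained and 68 (1.95%) lost a peak. Over all genes 1.94% gained and 1.78% lost one. Transfer RNA genes were nearly bare, with 2 of 625 kept, 0 gained and 2 lost. Annotated pseudogenes were counted apart, and 341 of 4843 (7.04%) were kept, 47 (0.97%) gained and 33 (0.681%) lost a peak. By chromosome, the share of genes gaining a peak ran between 1.48% on chromosome 2 and 2.19% on chromosome 1, and the share losing one between 1.41% on chromosome 1 and 2.16% on chromosome 4.

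The position of the mark along protein-coding genes differed between the groups, where each 10% of the gene length counted as covered if peaks lay over at least 50% of it. In gained genes the second 10% of the gene was the part most often covered, in 71.6% and 75.3% of genes in the ubp5 libraries, and coverage thinned to 28.9% and 27.7% in the last 10%. In lost genes the fourth 10% was covered most often, in 65.7% and 70.6% of genes in the Col-0 libraries, against 31.2% and 34.1% in the last 10%, and the first 10% lay between these. Gained peaks thus lay toward the start of the gene and lost peaks nearer its middle, by values that are a description of the chosen genes.

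In kept genes every 10% of the gene was covered less often in ubp5 with no overlap between the genotypes, the middle as well as the ends. The fifth 10%, for example, was covered in 86.5% and 87.8% in ubp5, against 89.4% and 91.4% in Col-0. The first 10% was covered in 70.77% and 73.5% of kept protein-coding genes in ubp5, against 76.8% and 82.58% in Col-0, with means of 72.14% ± 1.926 in ubp5 and 79.69% ± 4.086 in Col-0 (SD, n = 2 each) and a difference of −0.42 on the logit scale. The last 10% was covered in 58.14% and 60.19% in ubp5, against 63.05% and 68.09% in Col-0, with means of 59.16% ± 1.445 in ubp5 and 65.57% ± 3.561 in Col-0 (SD, n = 2 each) and a difference of −0.28. At both ends the ubp5 libraries were the lower ones without overlap (p = 0.3333 by the two-sided exact permutation test, its minimum here, and 0.4166 adjusted). Without Col-0 replicate 2 the differences were −0.24 for the first and −0.16 for the last 10%.

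**Figure D3:**
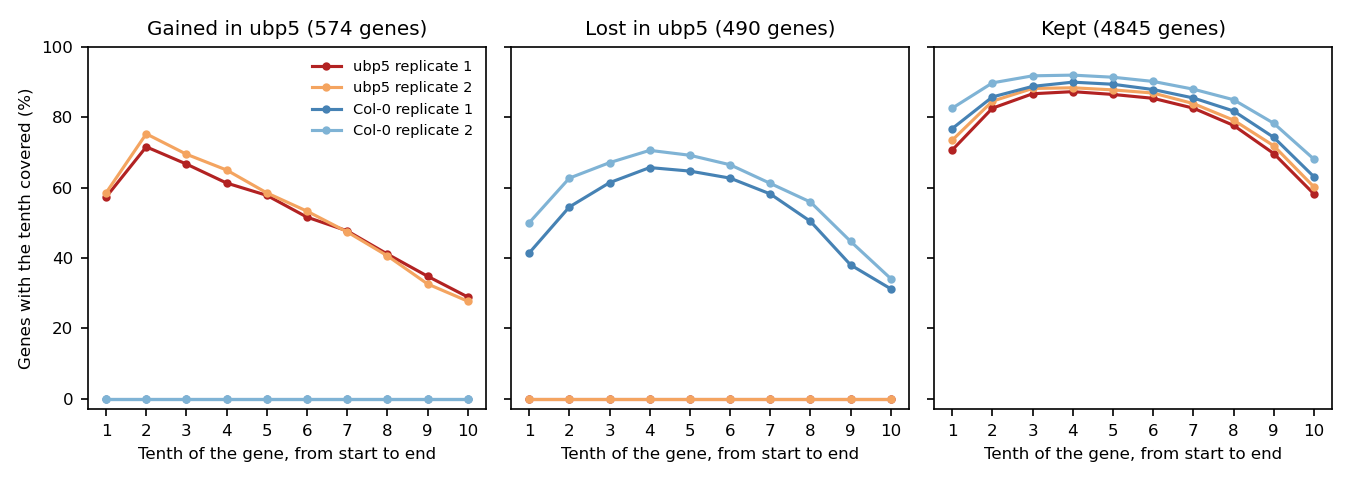
Share of protein-coding genes, in percent, in which each 10% of the gene from start to end was covered over at least 50% by H3K27me3 peaks, for 574 genes gaining a peak in ubp5, 490 losing one and 4845 kept; each line is 1 library. In gained genes both ubp5 lines are highest in the second 10% (71.6% and 75.3%), in lost genes both Col-0 lines in the fourth (65.7% and 70.6%), and the lines at 0 follow from how these groups were defined.

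Peaks of the 4 libraries that overlapped or lay within 500 bp of each other were joined into 6378 domains, 3848 of them with a peak in every library. Domains found in both libraries of 1 genotype alone were short. There were 431 in ubp5 alone with a median of 1073 bp and 410 in Col-0 alone with a median of 1134 bp, against 2992 bp for shared domains. Of the gained genes 457 (71.3%) lay in domains of ubp5 alone and 167 (26.1%) in shared domains that reached into the gene, and of the lost genes 375 (63.8%) lay in domains of Col-0 alone and 186 (31.6%) in shared ones. A gain or loss was therefore mostly a domain of 1 genotype alone, and less often a shared domain that reached the gene in 1 genotype only.

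The domains missing from ubp5 were narrow in Col-0. Of domains present in both Col-0 libraries, 26.6% of those under 1 kb were absent from both ubp5 libraries, 12.0% of those of 1 to 2 kb, 2.95% of those of 2 to 5 kb, 0.647% of those of 5 to 10 kb and none of the 213 over 10 kb. Edges were scored only in shared domains, and width was taken from Col-0. A narrow domain has little room to retract by 200 bp without being absent, and a wide one can hardly be absent whole. The order over the width classes is thus partly set by these rules. Among shared domains, edges were retracted least often in the narrowest class. They were retracted in ubp5 by at least 200 bp in 1.43%, 6.7%, 12.2%, 13.3% and 12.2% of edges from the narrowest to the widest class, and extended in 3.41%, 3.17%, 3.3%, 4.34% and 4.46%.

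**Figure D4:**
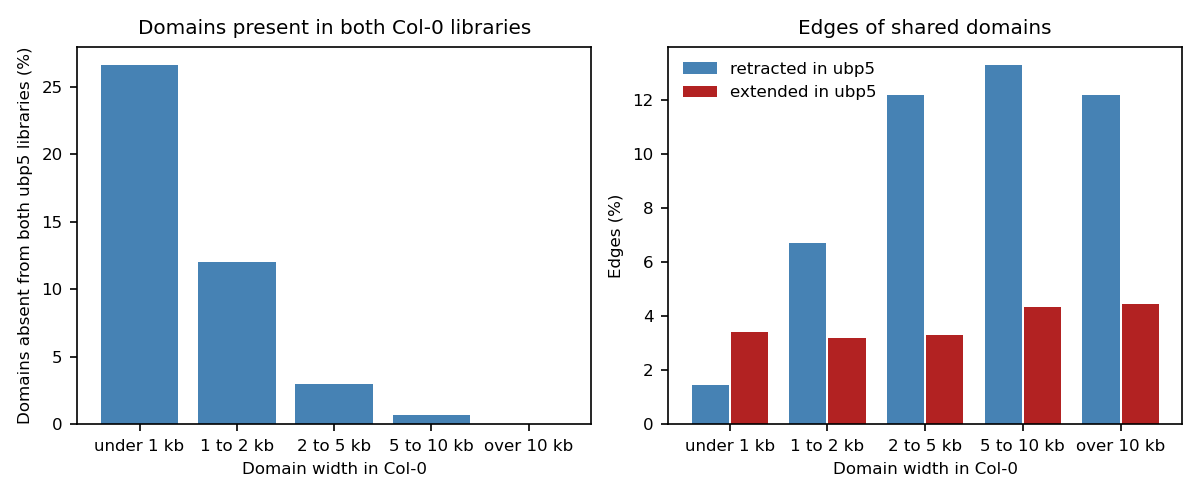
H3K27me3 domains by their width in Col-0: the share of domains of both Col-0 libraries that were absent from both ubp5 libraries (left) and the shares of edges of shared domains that were retracted (blue) or extended (red) in ubp5 by at least 200 bp (right), in percent. Absence runs from 26.6% in domains under 1 kb to 0 of 213 over 10 kb, and retracted edges outnumber extended ones in every class of 1 kb or wider.

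Over all 7696 edges of shared domains, 747 (9.71%) were retracted and 270 (3.51%) extended in ubp5, where both ubp5 libraries had to lie at least 200 bp inside or outside both Col-0 libraries. For comparison, the edges of replicates lay a median of 56 bp apart in ubp5 and 73 bp in Col-0. Between libraries of different genotypes the medians ran from 82 to 121 bp, the largest with Col-0 replicate 2, so most edges differed little. Retracted edges were on the left of 372 domains and on the right of 375, so neither side was preferred. The median shift was −786.5 bp for retracted edges and 1128 bp for extended ones. Retraction was mostly one-sided, with 53 domains retracted at both edges, 9 extended at both, and 2912 (75.7%) moved at neither. Without Col-0 replicate 1 there were 1583 retracted and 389 extended edges, and without ubp5 replicate 2 there were 1383 and 389. Without ubp5 replicate 1 there were 1095 retracted and 498 extended edges. Without Col-0 replicate 2 there were 948 and 619, so the gap between these counts narrowed. With a margin of 500 bp 391 edges were retracted and 202 extended.

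The sequence given up and the sequence taken in differed in the share lying in genes. Retracted edges freed 590.4 kb, of which 46.6% lay in genes, and extended edges added 329.1 kb, of which 66.5% did, against 55.5% of the nuclear genome. A whole protein-coding gene lay in 16 of the 747 retracted stretches (2.14%) and in 30 of the 270 extended ones (11.1%). The extended stretches were also longer, with a median of 905.5 bp against 522 bp, which leaves more room for a whole gene. Edges that lay nearest to a gene end in Col-0 were retracted in 10.9% and those nearest to a gene start in 8.74%. HDA18 lay whole in the second largest retraction, where the left edge of a domain on chromosome 5 stood at 24576385 and 24576113 in ubp5, against 24571292 and 24571215 in Col-0. The largest, on chromosome 1, had its left edge at 12346423 and 12346399 in ubp5, against 12340564 and 12340069 in Col-0, and the freed stretch held no whole gene.

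The largest extension moved a left edge on chromosome 1 to 8474149 and 8474144 in ubp5, against 8481158 and 8480814 in Col-0, and took in AT1G23960. On chromosome 3 a right edge stood at 17174151 and 17174218 in ubp5, against 17167542 and 17167597 in Col-0, and the added stretch held AT3G46614, AT3G46616 and noncoding genes. On chromosome 1 another left edge stood at 21093389 and 21093442 in ubp5, against 21098574 and 21098579 in Col-0, and took in AT1G56350. In each of these the libraries of a genotype lay at most 344 bp apart.

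Domains were also more often broken in ubp5. A shared domain held on average 1.125 and 1.13 peaks in ubp5, against 1.071 and 1.048 in Col-0. Means were 1.128 ± 0.003859 in ubp5 and 1.059 ± 0.01599 in Col-0 (SD, n = 2 each), a difference of 0.09 on the log2 scale, and the genotypes did not overlap (p = 0.3333 by the two-sided exact permutation test, its minimum here, and 0.4166 adjusted). In 144 domains both ubp5 libraries had more pieces than both Col-0 libraries, and in 14 fewer. A domain at chr2:18075836-18090381 over a cluster of chitinase genes was in 3 and 3 pieces in ubp5, against 1 and 1 in Col-0, with 7828 and 7987 bp covered in ubp5, against 13811 and 14546 bp in Col-0. One at chr1:17490675-17506071, over BGLU34 and PUP19, was in 4 and 3 pieces in ubp5, against 1 and 1 in Col-0. Another at chr2:14687970-14703659, over RALFL20 and WRKY35, was in 3 and 3 pieces in ubp5, against 1 and 1 in Col-0. The part of signal strength in this was not tested.

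The 3 widest domains found in ubp5 alone lay in repeated sequence. The widest, chr4:5861414-5895393, had 27944 and 29433 bp covered in ubp5, against 0 and 0 bp in Col-0, and 76.7% of its 100-base words occur elsewhere in the genome. The next, chr1:8802050-8828581, over LpxC3, LpxC4 and the F-box gene AT1G25150, had 23940 and 25888 bp in ubp5, against 0 and 0 bp in Col-0, with 99.6% of its words repeated. The study's methods state that uniquely mapped reads were kept, while its listed mapping command admitted reads with many positions, so the placement of reads in these domains is uncertain. The next in width, over TIL2, AT1G23935 and MCM9, had at most 1.36% of words repeated, and the 6 widest domains of Col-0 alone had none. Genes with over 50% of their words repeated made up 20 of the 574 protein-coding gains (3.48%), 7 of the 490 losses (1.43%) and 1.14% of all such genes. Without them 618 genes gained and 581 lost a peak.

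H2Aub was read beside H3K27me3 from the 3 ubp5 and 3 Col-0 H2Aub libraries of the series. It had not been used to choose the genes. Of the 641 genes gaining H3K27me3, 88.3%, 71.0% and 90.6% had an H2Aub peak in ubp5 replicates 1 to 3, against 34.9%, 54.4% and 70.2% in Col-0 replicates 1 to 3. Over all genes the shares were 62.7%, 35.6% and 72.1% in ubp5, against 42.2% and 54.1% in Col-0 replicates 2 and 3 and a lower share in Col-0 replicate 1. The gained genes thus held H2Aub more often than all genes in each of the 6 libraries, but so did the lost and the kept genes. In each Col-0 library the gained genes had a lower share than the lost and the kept genes. Genes with no H3K27me3 peak had 60.3%, 33.2% and 69.3% in ubp5, against 22.4%, 35.7% and 47.7% in Col-0 replicates 1 to 3. In the second ubp5 library, which was low over all genes, the gained genes held H2Aub at 71.0% against 35.6%. That library has the fewest uniquely mapped reads of the H2Aub libraries in the depth table of the study. The length of the gained genes was under H2Aub peaks over 45.4%, 29.8% and 48.3% in ubp5, against 11.5%, 18.3% and 25.6% in Col-0.

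Unlike gained genes, genes losing H3K27me3 showed no separation of the genotypes in H2Aub. They had an H2Aub peak in 68.5%, 40.0% and 80.6% in ubp5, against 61.2%, 66.8% and 77.7% in Col-0. Kept genes had 68.5%, 39.4% and 79.9% in ubp5, against 54.3% to 73.4% in Col-0. No test was made over these chosen genes. At LDA, H2Aub peaks covered 5556, 1516 and 7001 bp in ubp5, against 0, 376 and 652 bp in Col-0. At MCM9 they covered 4266, 928 and 5265 bp in ubp5, against 0, 0 and 424 bp in Col-0. At LUP2 they covered 4675, 4531 and 4885 bp in ubp5, against 0, 1921 and 2592 bp in Col-0. In LDA, MCM9 and LUP2 the genotypes thus did not overlap in either mark, with ubp5 the higher. This did not hold for every gained gene: of the 10 longest gains, 5 had more H2Aub in all ubp5 libraries, 4 overlapped and 1 had less. The gene with less was AT1G59218, with 589, 0 and 586 bp in ubp5, against 1553, 636 and 1479 bp in Col-0. At HAF2 they covered 7217, 1707 and 6984 bp in ubp5, against 1736, 1992 and 2066 bp in Col-0, and the second ubp5 library fell within the Col-0 values. Of the 10 longest losses, 8 overlapped, 2 had less H2Aub in all ubp5 libraries and none had more. AGO3 was 1 of these 2, with 3116, 1098 and 4158 bp in ubp5, against 4300, 4300 and 4383 bp in Col-0.

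**Figure D5:**
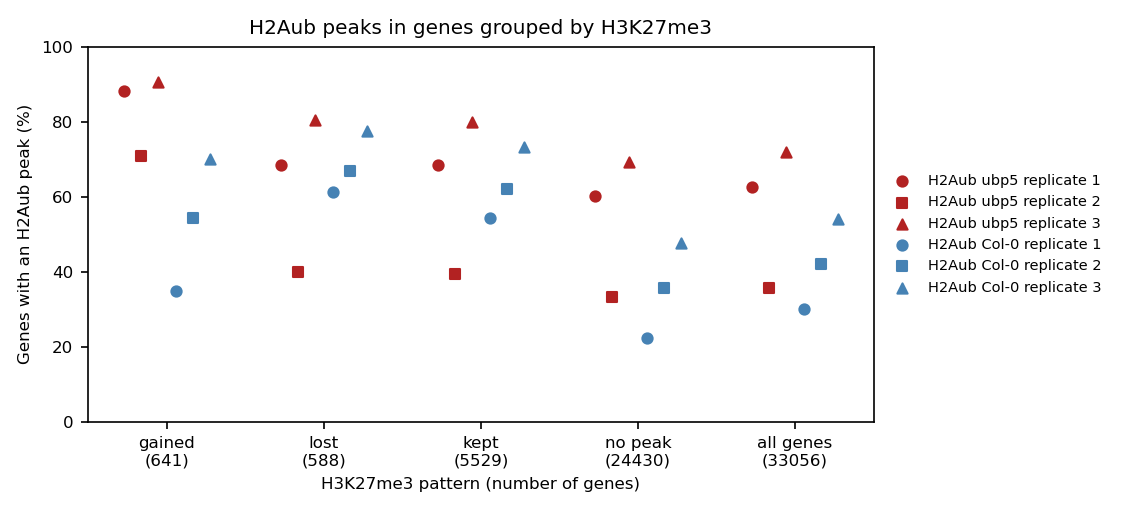
Share of genes with an H2Aub peak, in percent, for genes grouped by their H3K27me3 pattern; each point is 1 H2Aub library, ubp5 in red left of Col-0 in blue, and symbols mark replicates. Genes gaining H3K27me3 lie at 88.3%, 71.0% and 90.6% in ubp5, against 34.9%, 54.4% and 70.2% in Col-0, and ubp5 replicate 2 is the lowest ubp5 library in every group.

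The gene next to the deleted locus was chosen after its values were seen. AT2G40925, an F-box gene (chr2:17074905-17076239, minus strand) 71 bp from UBP5, had 0 and 0 bp in ubp5, against 606 and 449 bp in Col-0. On the other side of UBP5, AT2G40935 and ERS1 had no peak in any library.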

How the data were processed

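H3K27me3 ChIP-seq of 2 ubp5 and 2 Col-0 libraries was analysed, grouped by the sample labels, with the H2Aub peak lists of 3 ubp5 and 3 Col-0 libraries set beside. The 6 input samples are not analysed here. Per the study's methods and the submitters' processing notes, the authors mapped paired-end reads to TAIR10 with STAR 2.7.8a, removed duplicates with Picard and called broad peaks in each library with MACS3 3.0.0 against input. The deposited score is about 10 times −log10 q as a whole number, which held within 1 for every peak of the 4 lists. The deposited fold is a ratio of signal over background, and each peak also carries a −log10 p and a −log10 q deposited by the authors. The methods give a q-value limit of 0.05, while the lowest deposited −log10 q ran from 1.009 to 1.049 in the 4 lists, so peaks weaker than that limit are included. These values rise with depth. Peak lists hold no reads, so no interval could be set on a count.

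Peaks with a score over 30 were kept. Genes came from RefSeq's TAIR10.1, and the last peak ended within each chromosome. A gene had a peak from 1 bp of overlap. Domains joined peaks over gaps of up to 500 bp, and edges were called with a margin of 200 bp. Values per library were compared by exact two-sided permutation tests without a replicate block. Replicates were separate biological samples per the study's methods. The functions were tested on simulated peak lists. Classes came from words in the annotation's product names and symbols. The members, classes and lists were chosen with earlier results of these data known. Named genes were the 10 longest gains and losses, the 5 kept genes with the largest difference in each direction, the 3 largest edge shifts each way, up to 3 gaining and 3 losing genes per class, and a list of 44. Other settings tried were a score over 60, no score limit, lists of equal covered length, at least 200 bp or 50% of the gene, protein-coding genes, other gaps and margins, each library left out, and a replicate block. Python 3.11.15, NumPy 2.4.6 and pandas 2.3.3 were used.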

Additional observations from a re-analysis of the deposited data

How the results depend on the processing

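With 2 libraries per genotype no p below 0.3333 could be reached, so no comparison passed a threshold under any setting. The difference in genic covered length (−0.05 on the log2 scale) reversed to 0.05858 with lists of equal covered length and ranged from −0.1312 to 0.03458 when each library was left out. With all deposited peaks, kept genes covered further numbered 439. With a score over 60, 427 genes gained a peak and 174 kept genes were covered further. With at least 50% of the gene covered, 310 genes gained and 300 lost a peak and 182 kept genes were covered further. With no margin, 3149 edges were retracted and 777 extended, and with a margin of 500 bp 391 were retracted and 202 extended. With no deposited peak of any score in the other genotype, an alternative chosen after seeing the data, 287 genes lost a peak, and without genes mostly made of repeated sequence, chosen likewise, 618 gained and 581 lost one. Leaving out each library gave 666 to 914 gains, 650 to 1156 losses, 441 to 905 kept genes covered further, 1665 to 2346 covered less far, 948 to 1583 retracted and 389 to 619 extended edges. The same ranges were −0.2947 to −0.1341 (logit) for the share of kept gene length, 0.07796 to 0.1057 (log2) for peaks per shared domain, −0.5482 to −0.2416 for the first 10% of kept genes and −0.3502 to −0.1634 for the last 10%. Of the covered length differences of 193 named genes, 4 reversed: AT4G19520 to 95.5 bp and LCR59 to 86.5 bp with all deposited peaks, and PHO1 to 92.0 bp and MAF5 to −365.0 bp with a score over 60. Of 270 class counts under the 3 peak settings, 111 moved by over 1.5 times. The cause of these changes was not tested, except that leaving out a library raises counts by construction. A replicate block gave −0.2421 for the share of kept gene length, −0.4244 and −0.2753 for the first and last 10% and 0.09028 for peaks per shared domain, each with an exact p = 0.5 from sign changes within 2 pairs, and −0.04832 with p = 1.0 for genic covered length, and changed no call. Deviations of same-numbered libraries correlated with r = 0.0948 over 8626 genes, and the sources used here name no batch shared by number, so the block was not read as a paired analysis.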
